A study of Homo sapiens with 8 samples.

Results

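Ribosome biogenesis factors are the nucleolar proteins that transcribe, modify, cut and fold ribosomal RNA and load it with ribosomal proteins. A fixed list of 50 of their genes was read out of the 60282 genes quantified in SK-UT-1 cells, a human cell line established from a leiomyosarcoma of the uterus. The cells were given TP-472, a small-molecule inhibitor that the labels call a BRD9/7 inhibitor, at 5 µM for 48 h, or DMSO as vehicle, and RNA was sequenced from 4 replicates of each. Both groups are the same line with no genetic change named, and the study's methods speak of biological replicates for its experiments in general. Neither they nor the labels say how the cultures behind these libraries were kept apart, so p-values measure only the spread between these libraries. The list is given by gene name, but it was drawn up with results of these libraries known, and NOP56, NOP58, RRP9, IMP3, BYSL, NIP7 and MRTO4 (spelled with a zero there) are also among genes that the study picked from them, so counts over the list describe these genes and are not independent evidence. All 50 genes passed the filter on low values.

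Ribosomes are assembled in the nucleolus, where RNA polymerase I copies the ribosomal DNA into a long precursor. Guide RNAs in box C/D and box H/ACA particles direct the modification of that precursor, and a large small-subunit assembly, the processome, forms on it while it is being made. The 2 subunits then mature along separate paths before they leave the nucleus. Many of these genes are known targets of MYC, which binds the E-box CACGTG together with its partner MAX, and their expression is known to follow growth in tumour cells.

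Library totals ran from 32574716 to 36634184 estimated counts in the vehicle group and from 36246466 to 38545695 in the TP-472 group. Levels are given as CPM, read counts corrected for sequencing depth and composition with edgeR's TMM factors. One library stood apart from the others. The median Spearman correlation of vehicle replicate 3 with the other vehicle libraries, over the 14073 genes tested, was 0.914, against 0.988 to 0.989 for vehicle replicates 1, 2 and 4. Within the TP-472 group the medians were 0.993 to 0.997. The most abundant gene in vehicle replicate 3 was RPPH1, and in the other 7 libraries it was RN7SL1. Comparisons between the groups are therefore given over all 8 libraries and again without vehicle replicate 3.

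The biogenesis factors were higher after TP-472 as a group. Of the 50 genes, 32 rose and 0 fell at an adjusted p under 0.05 and a fold change over 1.5 (edgeR's quasi-likelihood test, Benjamini-Hochberg adjustment over all genes tested). Over all 14073 genes tested, the same rule called 12.0% higher and 14.9% lower. Without vehicle replicate 3, 33 of the 50 rose and 0 fell, where 12.0% of the 13879 genes then tested were called higher and 13.1% lower. The median log2 fold change of the factors was 0.80 (1.74-fold) over 8 libraries and 0.71 (1.63-fold) over 7, beside a median of -0.03 over all genes tested in the 8-library fit. Adjusted p alone, with any fold, was passed by 40 factors, all higher, over 8 libraries (17.2% of all genes were called higher and 19.1% lower in this way) and by 48, all higher, over 7 (28.6% and 28.5% of all genes). No factor was lower at an unadjusted p under 0.05 in either fit, and DESeq2 and limma-voom also called 0 lower. The 4 TP-472 libraries lay above all 4 vehicle libraries for 40 of the 50 factors, and above the 3 remaining vehicle libraries for 47. For all genes tested these shares were 23.8% and 30.2%.

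Summed over the 50 genes, the level was 5191, 6226, 5047 and 6112 CPM in vehicle replicates 1 to 4 and 9171, 9311, 9468 and 8952 CPM in TP-472 replicates 1 to 4. The groups did not overlap, and their means were 5644 ± 611 and 9226 ± 219 CPM (SD, n = 4), a ratio of 1.63. Without vehicle replicate 3 the vehicle mean was 5843 ± 567 CPM (SD, n = 3) and the ratio 1.58. The factors took between 0.535% and 0.597% of all counts in the vehicle libraries and between 0.877% and 0.935% in the TP-472 libraries. In bulk RNA, more cells of one kind and more RNA per cell cannot be told apart.

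**Figure D1:**
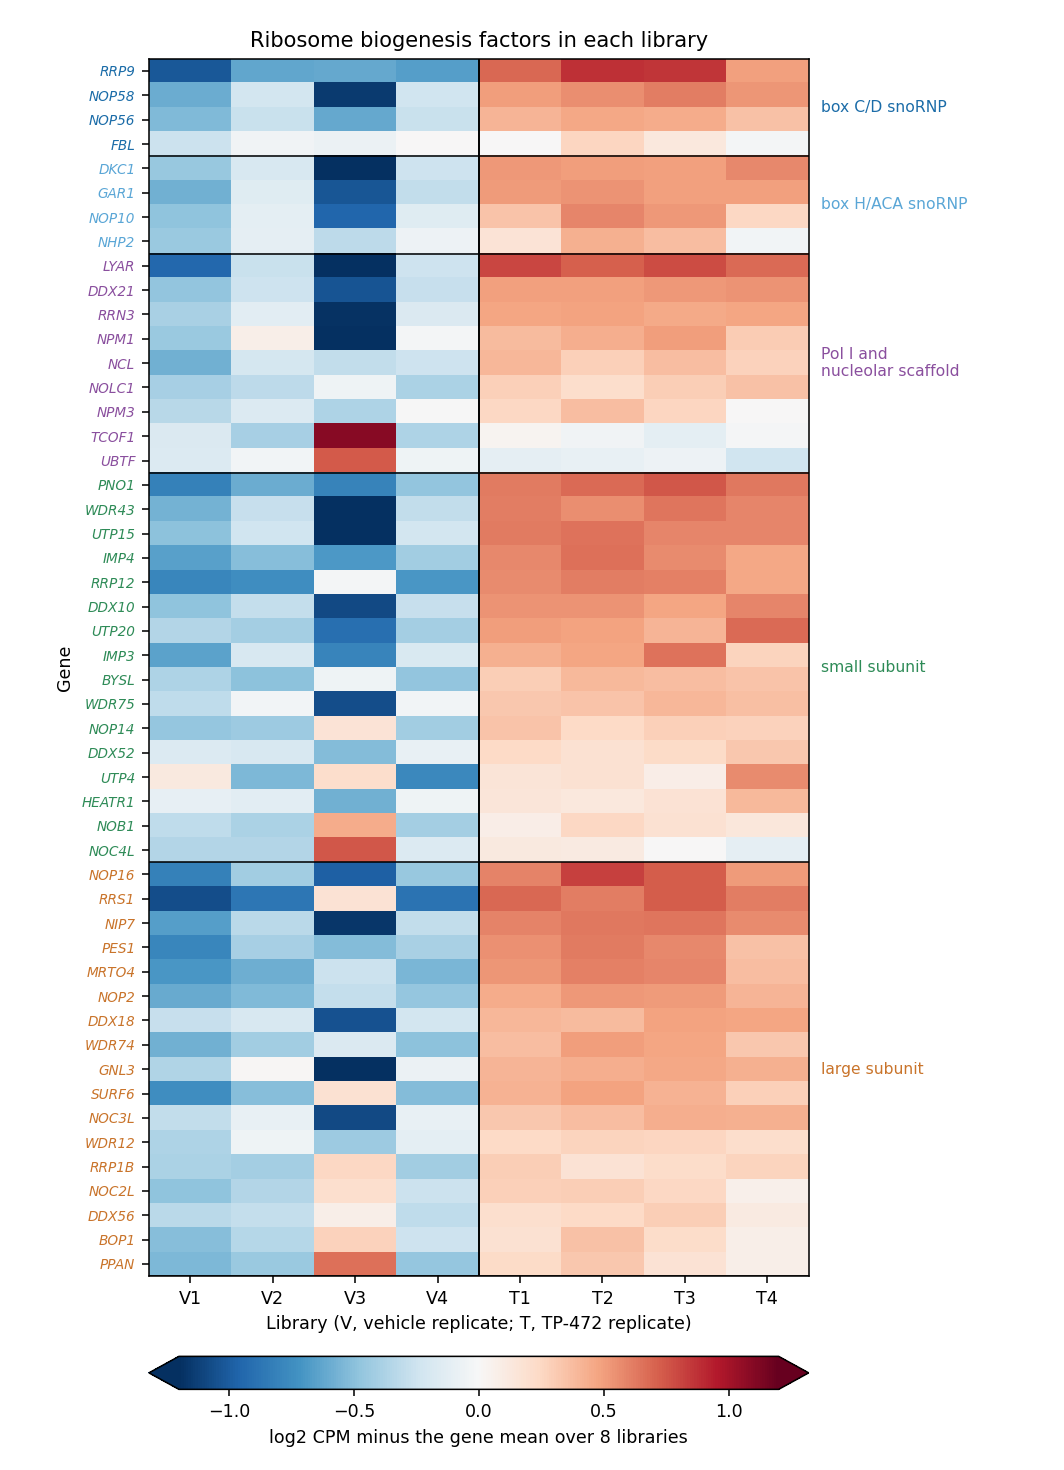
Heat map of the 50 biogenesis factors (rows, grouped by role) in the 8 libraries (columns V1 to V4 for vehicle and T1 to T4 for TP-472). Colour gives log2 CPM minus the mean of the gene over the 8 libraries, and values beyond the scale take its end colour. Most rows are blue in the 4 vehicle columns and red in the 4 TP-472 columns, while V3 departs from the other vehicle columns in both directions.

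The E-box was searched in the RefSeq promoter windows of build GRCh38.p14. These run from 250 bases before the transcription start to 50 bases after it. Windows were matched for 41 of the 50 factors. The letters CACGTG, a palindrome and so the same on both strands, stood in 15 of the 41 (36.6%). They stood in 7.43% of all 27305 windows, in 10.3% of the 10200 windows of genes tested here, in 29.0% of the 93 matched windows of other biogenesis factors, and in 4.76% of the 63 matched windows of cytosolic ribosomal protein genes. In 14 of the 41 (34.1%) the E-box began within 50 bases of the start, a limit chosen after the positions were seen, against 4.09% of the genes tested. A second palindrome, CTCGCGAG, was found in 2 of the 41 windows (4.88%), those of NPM1 and NOP14, and in 2.16% of the genes tested, 5.38% of the other biogenesis factors and 9.52% of the ribosomal protein genes. A match of letters is a description of the window and does not show that a factor binds there.

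The E-box and 12 bases on either side are shown for the 6 matched factors with the largest change among those with an E-box near the start, and for FBL, UTP4 and NOP14, which have an E-box but were not called over 8 libraries. Capitals mark the E-box, sequences are written 5′ to 3′ on the strand of the gene, and positions count the first transcribed base as 1 and the base before it as -1. The windows lie at chr3:51941892-51941921 (minus strand, E-box from -5) for RRP9, chr2:68157885-68157914 (plus, from 10) for PNO1, chr2:28894658-28894687 (plus, from 4) for WDR43, and chr2:130342900-130342929 (plus, from 16) for IMP4. Those of PES1, MRTO4, FBL, UTP4 and NOP14 lie at chr22:30591880-30591909 (minus, from 14), chr1:19251807-19251836 (plus, from 15), chr19:39846356-39846385 (minus, from 7), chr16:69132621-69132650 (plus, from -16) and chr4:2963374-2963403 (minus, from 16).
RRP9: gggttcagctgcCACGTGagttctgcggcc
PNO1: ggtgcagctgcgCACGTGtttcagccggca
WDR43: cgcacggacgaaCACGTGgctgcagcgggg
IMP4: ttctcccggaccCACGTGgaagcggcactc
PES1: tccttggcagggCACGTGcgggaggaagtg
MRTO4: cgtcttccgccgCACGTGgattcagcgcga
FBL: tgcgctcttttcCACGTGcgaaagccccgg
UTP4: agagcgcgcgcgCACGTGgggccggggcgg
NOP14: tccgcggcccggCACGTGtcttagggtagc

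Of the 15 factors with it, 12 were called higher over 8 libraries and 13 over 7, with median log2 fold changes of 0.94 and 0.97. Of the 26 matched factors without it, 16 and 14 were called higher, with medians of 0.76 and 0.67. Whether the factors with and without an E-box differ was not tested.

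MYC itself was measured at 132, 119, 282 and 124 CPM in vehicle replicates 1 to 4 and at 200, 190, 189 and 210 CPM in the TP-472 replicates. Vehicle replicate 3 lay above every other library, and the 3 other vehicle libraries lay below every TP-472 library. The log2 fold change of MYC was 0.26 ± 0.27 (SE) over 8 libraries, with an edgeR adjusted p of 0.455, and 0.65 ± 0.066 without vehicle replicate 3, with an adjusted p of 4.04e-05, so that its call rests on that library. MAX was not called in either fit, at log2 fold changes of 0.27 and 0.30, and MYCN was below the filter. The transcripts of the inhibitor's targets BRD9 and BRD7 were not called, at log2 fold changes of -0.16 and 0.11 over 8 libraries and 0.053 and 0.10 over 7.

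The box C/D particle carries a guide RNA and methylates ribosomal RNA at the ribose. Of its 4 listed genes, 3 rose in both fits. RRP9 encodes the protein specific to the U3 particle, which guides the first cuts of the precursor, and it changed the most of the 50 over 8 libraries. RRP9 (ENSG00000114767.7, chr3:51933430-51941941 on GRCh38) was at 21.1, 27.7, 28.0 and 27.0 CPM in vehicle replicates 1 to 4 and at 68.7, 78.7, 77.7 and 60.1 CPM in TP-472 replicates 1 to 4. Every TP-472 library was more than double every vehicle library. The log2 fold change was 1.46 ± 0.14 (SE), with an edgeR adjusted p of 1.88e-04, and 1.49 ± 0.12 without vehicle replicate 3. NOP56 and NOP58, the paired core scaffold proteins of the particle, rose by 0.83 and 1.05 on the log2 scale, and by 0.76 and 0.89 over 7 libraries.

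FBL, fibrillarin, the methyltransferase of the same particle, had the highest level per length of the 4 in vehicle, at 72.2 CPM per kb of annotated exon. FBL (ENSG00000105202.9, chr19:39834458-39846414) was at 140, 162, 159 and 167 CPM in the vehicle libraries and at 168, 200, 182 and 164 CPM in the TP-472 libraries. The groups overlapped, and the log2 fold change of 0.18 ± 0.11 (SE) was not called in the 8-library fit (edgeR adjusted p = 0.204) or in the 7-library fit (0.18 ± 0.089, adjusted p = 0.105). It is 1 of 2 factors, with UBTF, that did not pass adjusted p in either fit.

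The box H/ACA particle turns uridine into pseudouridine, and its core proteins also bind the RNA of telomerase. Again 3 of 4 genes rose in both fits. DKC1, dyskerin, the pseudouridine synthase, had the largest change of the 4 over 8 libraries, and GAR1 had it over 7. DKC1 (ENSG00000130826.18, chrX:154762742-154777689) was at 71.5, 85.8, 43.0 and 82.6 CPM in the vehicle libraries and at 141, 139, 138 and 146 CPM in the TP-472 libraries. The groups did not overlap, and vehicle replicate 3 was well below the other vehicle libraries. The log2 fold change was 1.00 ± 0.20 (SE, edgeR adjusted p = 0.00543), and 0.81 ± 0.072 without that library (adjusted p = 1.80e-05).

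NOP10, a small core protein of the same particle and the most abundant of the 4 per length (118 CPM per kb in vehicle), was at 61.3, 78.6, 44.2 and 77.2 CPM in the vehicle libraries and at 108, 129, 123 and 102 CPM in the TP-472 libraries. These groups did not overlap either. Its log2 fold change was 0.82 ± 0.18 (SE), and 0.67 ± 0.11 over 7 libraries. GAR1, which helps the synthase release its substrate, rose by 0.98 and 0.83 on the log2 scale in the 8-library and 7-library fits. The last member, NHP2, passed adjusted p in both fits but not the fold limit, at 0.47 and 0.44.

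The 9 genes of RNA polymerase I transcription and the nucleolar scaffold were the most mixed of the 5 groups. In each fit 5 were called higher, with medians of 0.66 and 0.64, and this group held the lowest log2 fold change in both. RRN3, the factor that brings RNA polymerase I to the ribosomal DNA promoter, was at 93.1, 112, 53.9 and 108 CPM in the vehicle libraries and at 169, 171, 167 and 170 CPM in the TP-472 libraries, and it rose by 0.88 and 0.69 on the log2 scale in the 2 fits. UBTF, which shapes the active ribosomal DNA, was at 122, 133, 228 and 132 CPM in the vehicle libraries and at 127, 128, 131 and 115 CPM in the TP-472 libraries. Apart from vehicle replicate 3, the levels of UBTF overlapped between the groups. The log2 fold change of UBTF was -0.29 ± 0.20 (SE) over 8 libraries and -0.046 ± 0.065 over 7, with edgeR adjusted p of 0.26 and 0.561.

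LYAR, a nucleolar zinc-finger protein, changed the most of this group. LYAR (ENSG00000145220.14, chr4:4267701-4290169) was at 27.1, 43.3, 18.1 and 43.7 CPM in the vehicle libraries and at 90.4, 85.3, 89.6 and 83.3 CPM in the TP-472 libraries. The vehicle libraries spread widely and still lay below the TP-472 libraries. Its log2 fold change was 1.40 ± 0.26 (SE, edgeR adjusted p = 0.00388), and 1.19 ± 0.15 without vehicle replicate 3 (adjusted p = 1.34e-04). DDX21, an RNA helicase that acts at ribosomal DNA and on the precursor, rose by 0.99 and 0.84 on the log2 scale, and NCL, nucleolin, by 0.66 in both fits.

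NPM1, nucleophosmin, a histone chaperone of the outer nucleolus, was the most abundant factor per length, at 313 CPM per kb in vehicle and 518 CPM per kb after TP-472. NPM1 (ENSG00000181163.13, chr5:171387116-171411137) was at 1101, 1575, 638 and 1474 CPM in the vehicle libraries and at 1941, 2025, 2115 and 1854 CPM in the TP-472 libraries. The groups did not overlap, although vehicle replicate 3 lay far below its group. The call of NPM1 depended on that library. The log2 fold change was 0.73 ± 0.25 (SE) with an edgeR adjusted p of 0.0496 over 8 libraries, and 0.52 ± 0.12 with an adjusted p of 0.00599 over 7, where it was a 1.43-fold difference and so below the fold limit. NPM3, its smaller paralog, passed adjusted p but not the fold limit in either fit, at 0.44 and 0.38.

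NOLC1 and TCOF1 encode related nucleolar phosphoproteins that bind RNA polymerase I and the snoRNP particles. NOLC1 was at 206, 219, 262 and 208 CPM in the vehicle libraries and at 332, 314, 332 and 346 CPM in the TP-472 libraries. Its groups did not overlap, and its log2 fold change was 0.56 ± 0.11 (SE) over 8 libraries, just under the fold limit, and 0.64 ± 0.060 over 7, where it was called. TCOF1, treacle, was at 136, 117, 328 and 119 CPM in the vehicle libraries and at 158, 149, 142 and 152 CPM in the TP-472 libraries. The direction of TCOF1 turned on vehicle replicate 3, with a log2 fold change of -0.22 ± 0.32 (SE, edgeR adjusted p = 0.607) with it and 0.27 ± 0.072 (adjusted p = 0.00967) without it, and in neither fit was it called.

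**Figure D2:**
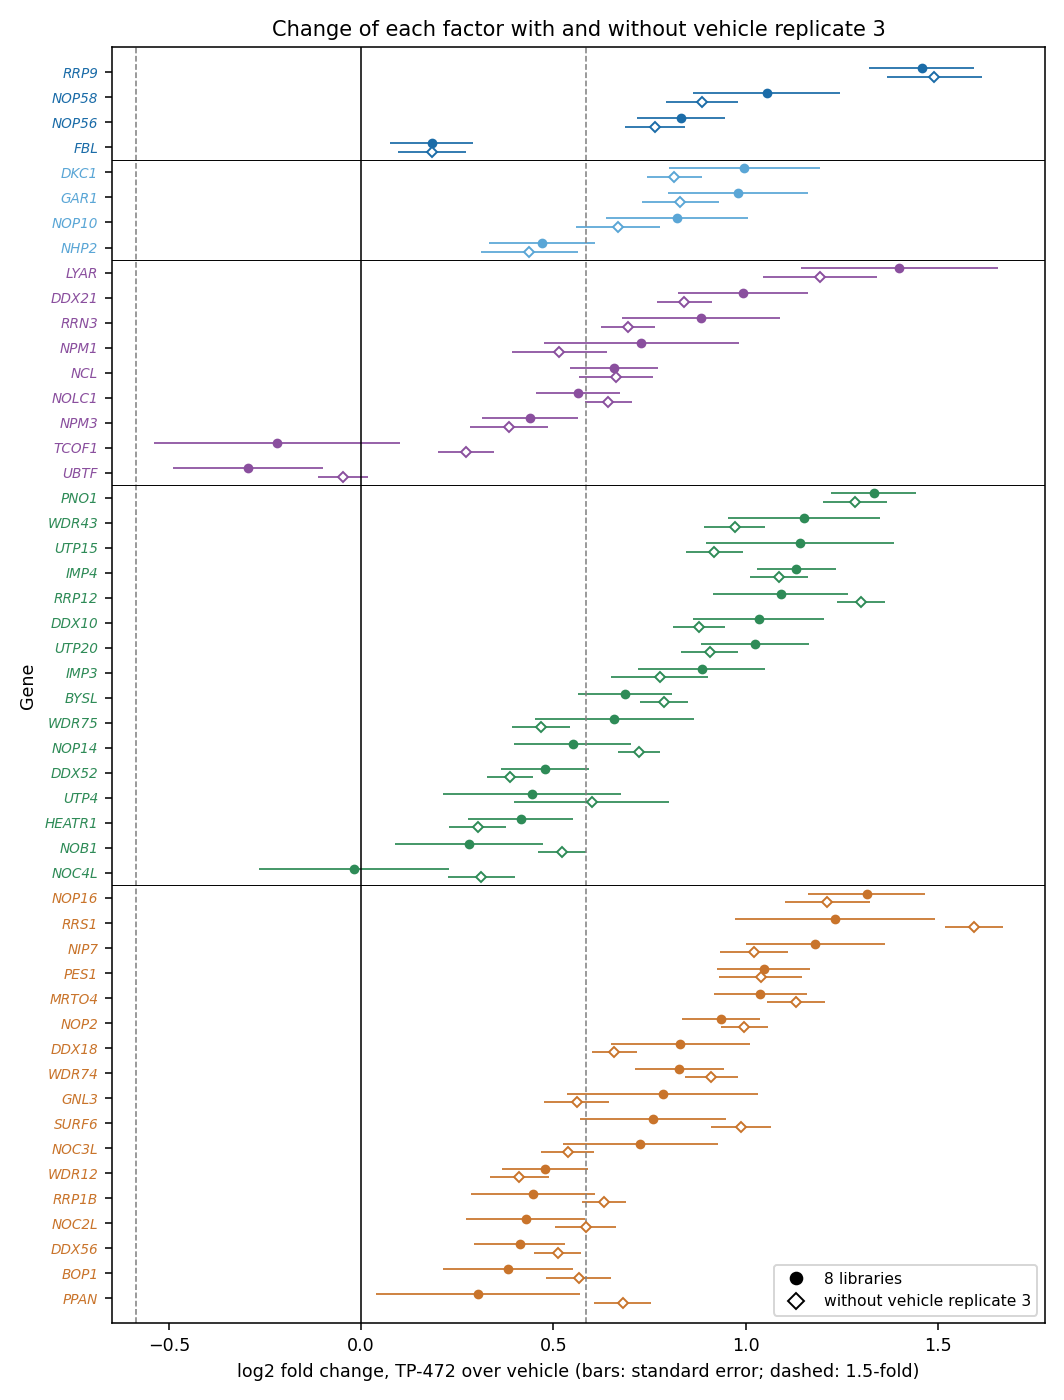
Log2 fold change of each of the 50 factors, TP-472 over vehicle (horizontal axis, bars give the standard error), over 8 libraries (filled circles) and without vehicle replicate 3 (open diamonds). Genes are coloured and grouped by role in the order of the heat map, and dashed lines mark the 1.5-fold limit. The values lie between -0.29 and 1.46 over 8 libraries and between -0.046 and 1.59 over 7.

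The 16 factors of the small subunit build the processome and finish the 18S RNA. Over 8 libraries 10 of them rose, with a median log2 fold change of 0.79, and over 7 libraries 11 rose, with a median of 0.78. PNO1, which partners the endonuclease of the last 18S cut, changed the most of the 16 over 8 libraries. PNO1 (ENSG00000115946.8, chr2:68157844-68176238) was at 28.5, 33.2, 28.6 and 36.0 CPM in the vehicle libraries and at 76.8, 80.2, 83.6 and 77.7 CPM in the TP-472 libraries. Both groups were tight and far apart, and the log2 fold change was 1.33 ± 0.11 (SE, edgeR adjusted p = 9.86e-05), and 1.28 ± 0.083 over 7 libraries. NOB1, that endonuclease, was not called, at log2 fold changes of 0.28 and 0.52, and vehicle replicate 3, at 70.8 CPM, was above the TP-472 range of 55.0 to 61.9 CPM.

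The proteins UTP4, UTP15, WDR43, WDR75 and HEATR1 belong to the part of the processome that also supports transcription of ribosomal DNA, and whether their changes differ from each other was not tested. WDR43 was at 109, 133, 67.5 and 131 CPM in the vehicle libraries and at 246, 238, 252 and 241 CPM in the TP-472 libraries, without overlap, and it was the most abundant small-subunit factor per length after TP-472 (59.1 CPM per kb). Its log2 fold change was 1.15 ± 0.20 (SE), and 0.97 ± 0.079 over 7 libraries. UTP15 rose by 1.14 and 0.92 in the 2 fits. WDR75 was at 92.5, 112, 54.5 and 112 CPM in vehicle and at 142, 145, 151 and 147 CPM after TP-472, and with log2 fold changes of 0.66 ± 0.21 (SE) and 0.47 ± 0.075 it was called over 8 libraries only.

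HEATR1 passed adjusted p but not the fold limit in either fit, at 0.41 and 0.30. UTP4 had an uneven vehicle group, at 52.2, 33.1, 55.6 and 28.1 CPM, beside 53.5, 54.4, 50.8 and 71.3 CPM in the TP-472 libraries. Vehicle replicates 1 and 3 thus lay within the TP-472 range, and UTP4 was called over 7 libraries (log2 fold change 0.60 ± 0.20 (SE), edgeR adjusted p = 0.0286) but not over 8 (0.44 ± 0.23, adjusted p = 0.155).

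IMP3 and IMP4, which sit with the U3 particle in the processome, rose by 0.89 and 1.13 on the log2 scale over 8 libraries and by 0.78 and 1.09 over 7. UTP20, a very large scaffold protein of the processome, rose by 1.02 and 0.91 in the same 2 fits. Also higher in both fits were the helicase DDX10 (1.03 and 0.88), the export factor RRP12 (1.09 and 1.30) and BYSL, bystin (0.69 and 0.79). Of the partners NOP14 and NOC4L, NOP14 was called over 7 libraries only (0.55 and 0.72). NOC4L was at 14.7, 14.7, 31.5 and 16.7 CPM in the vehicle libraries and at 20.4, 20.2, 18.8 and 17.4 CPM in the TP-472 libraries, so that vehicle replicate 3 alone exceeded the TP-472 group, and its log2 fold change was -0.018 ± 0.25 (SE) with that library and 0.31 ± 0.088 without it. The helicase DDX52 passed adjusted p in both fits below the fold limit, at 0.48 and 0.39.

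The 17 factors of the large subunit act on the 28S and 5.8S RNA and on the 5S particle, and 11 rose in each fit, with medians of 0.78 and 0.68. NOP16, a component of early large-subunit particles, changed the most of them over 8 libraries. NOP16 (ENSG00000048162.21, chr5:176383938-176388975) was at 22.1, 29.0, 19.6 and 28.2 CPM in the vehicle libraries and at 58.6, 68.1, 64.2 and 55.2 CPM in the TP-472 libraries. The groups were far apart, with a log2 fold change of 1.31 ± 0.15 (SE, edgeR adjusted p = 4.43e-04), and 1.21 ± 0.11 over 7 libraries.

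RRS1, which helps to dock the 5S particle, was at 13.3, 15.3, 31.4 and 15.0 CPM in the vehicle libraries and at 44.9, 42.6, 46.1 and 42.4 CPM in the TP-472 libraries. Vehicle replicate 3 was again apart, here about midway between its group and the treated libraries. RRS1 had a log2 fold change of 1.23 ± 0.26 (SE) over 8 libraries, and without that library it had the largest of all 50, 1.59 ± 0.074, or 3.02-fold.

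PES1, BOP1 and WDR12 form one complex that is needed to process the 28S side of the precursor, and of them only PES1 was called. PES1 was at 70.5, 91.9, 84.4 and 92.6 CPM in the vehicle libraries and at 177, 187, 181 and 155 CPM in the TP-472 libraries, with log2 fold changes of 1.05 ± 0.12 (SE) and 1.04 ± 0.11. BOP1 had 0.38 and 0.57 in the 2 fits and WDR12 had 0.48 and 0.41, and whether the 3 genes differ from each other was not tested. Among the enzymes and placeholders of the large subunit, NOP2, a methyltransferase of the 28S RNA, rose by 0.94 and 1.00, MRTO4, which holds the place of a stalk protein, by 1.04 and 1.13, and NIP7 by 1.18 and 1.02. The helicase DDX18 rose by 0.83 and 0.66, while DDX56 was not called, at 0.41 and 0.51. WDR74 rose by 0.83 and 0.91, and SURF6 by 0.76 and 0.99.

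GNL3, nucleostemin, a GTPase of the nucleolus known from stem cells and tumour cells, was the most abundant large-subunit factor per length (35.7 CPM per kb in vehicle). GNL3 (ENSG00000163938.17, chr3:52681156-52694492) was at 118, 152, 60.5 and 144 CPM in the vehicle libraries and at 201, 204, 208 and 203 CPM in the TP-472 libraries. The treated libraries were nearly equal and above every vehicle library. The log2 fold change of GNL3 was 0.78 ± 0.25 (SE, edgeR adjusted p = 0.0359), and 0.56 ± 0.085 without vehicle replicate 3 (adjusted p = 4.45e-04), below the fold limit.

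PPAN and RRP1B, unlike GNL3, had larger fold changes when vehicle replicate 3 was left out. PPAN, which binds early large-subunit particles, was at 23.6, 25.2, 54.3 and 24.9 CPM in the vehicle libraries and at 40.2, 43.1, 38.7 and 36.0 CPM in the TP-472 libraries, with log2 fold changes of 0.30 ± 0.26 (SE) over 8 libraries and 0.68 ± 0.075 over 7. RRP1B, a partner of phosphatase 1 in the nucleolus, was at 134, 131, 206 and 130 CPM and at 214, 195, 202 and 208 CPM, with 0.45 ± 0.16 (SE) and 0.63 ± 0.057. Both were called over 7 libraries only. Of the 3 NOC proteins that travel with pre-ribosomes, NOC3L was at 77.9, 89.8, 44.9 and 89.6 CPM in vehicle and at 119, 123, 129 and 128 CPM after TP-472, and it was called over 8 libraries (0.73 ± 0.20, SE) but not over 7 (0.54 ± 0.068). NOC2L fell just short of the fold limit over 7 libraries, at 0.58, and had 0.43 over 8.

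Across the 50 genes the 2 fits called 28 in common, 4 over 8 libraries only (NPM1, NOC3L, WDR75 and GNL3), 5 over 7 libraries only (NOLC1, PPAN, RRP1B, UTP4 and NOP14) and 13 in neither. In vehicle replicate 3 the level was under that of the 3 other vehicle libraries for 28 factors and over it for 22, with a median log2 ratio of -0.18 and a range from -1.19 (GNL3) to 1.40 (TCOF1). It was below by more than 1.5-fold for 16 factors (32%) and above by more than 1.5-fold for 11 (22%). For all genes tested these shares were 24.1% and 27%. Vehicle replicate 3 was the lowest vehicle library for 25 factors and the highest for 20, and vehicle replicate 1 was the lowest for 20. Over all genes tested, vehicle replicate 3 was the lowest for 43.7% and the highest for 43.2%, and vehicle replicate 1 was the lowest for 17.5%.

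The departure of vehicle replicate 3 moved with base composition. Across the 50 factors the Spearman correlation between the GC content of a gene's transcripts and the log2 ratio of that library to the 3 others was 0.758, and across 13970 genes with a GC value it was 0.781. These are descriptions across genes, which share the library and are not replicates. The genes tested were split into 4 bins of equal size by GC content. The 15 factors in the bin of lowest GC had a median log2 ratio of -0.82 in vehicle replicate 3, the 9 and 14 in the middle bins -0.70 and 0.37, and the 12 in the highest bin 0.48. Their median log2 fold changes on TP-472 were 0.88, 0.82, 0.51 and 0.76 over 8 libraries and 0.69, 0.67, 0.68 and 0.78 over 7. GNL3, NPM1, LYAR and RRN3, all AT-rich among the factors, had larger fold changes with the library than without it, and the GC-rich TCOF1, PPAN, NOC4L and RRS1 had smaller ones.

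**Figure D3:**
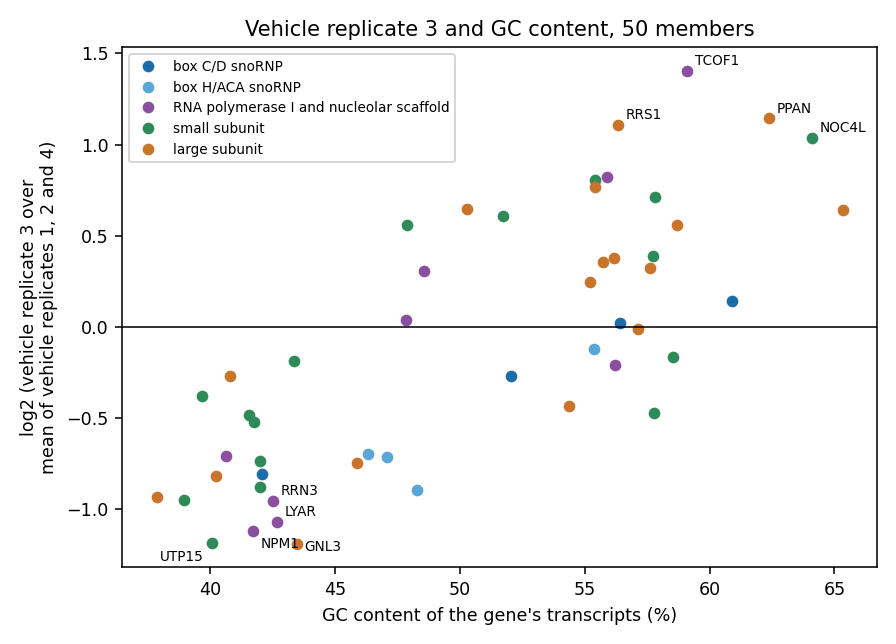
For each of the 50 factors, the log2 ratio of vehicle replicate 3 to the mean of vehicle replicates 1, 2 and 4 (vertical axis) against the GC content of its transcripts in percent (horizontal axis), coloured by role. Labelled genes are among those that depart the most. Genes of low GC content lie mostly below 0 and genes of high GC content mostly above it, with a Spearman correlation of 0.758.

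The factors were set beside 110 other tested genes of ribosome biogenesis, taken from lists of the same 3 kinds. Of these, 66 were called higher over 8 libraries and 62 over 7, and 0 were called lower in either fit (lower at adjusted p alone, with any fold, were 0 over 8 libraries and 2 over 7, NOP53 and PIH1D1), with medians of 0.68 and 0.63. The other 42 small-subunit factors had 31 and 28 called higher (medians 0.76 and 0.64) and the other 46 large-subunit factors 25 and 29 (0.70 and 0.69). The other 22 genes of snoRNP particles and RNA polymerase I had 10 and 5 called higher, with lower medians of 0.46 and 0.35. The largest changes over 8 libraries were those of NIFK, which binds the proliferation protein Ki-67, at 1.46, of PAK1IP1, a large-subunit factor, at 1.44, and of CD3EAP, a subunit of RNA polymerase I, at 1.33. Over 7 libraries they were 1.25, 1.26 and 1.58. PDCD11, a processome scaffold, was at 135, 136, 154 and 144 CPM in the vehicle libraries and at 247, 236, 233 and 249 CPM in the TP-472 libraries. It rose by 0.76 and 0.80 on the log2 scale in the 8-library and 7-library fits.

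Of 79 cytosolic ribosomal protein genes, 0 were called in either direction in either fit. At adjusted p alone, 4 were higher (among them FAU, RPL14 and RPL35) and 0 lower over 8 libraries, and 10 were higher and 1 lower, RPL3, over 7. At an unadjusted p under 0.05, 8 were higher and 1 lower over 8 libraries and 17 and 1 over 7. No share of all genes at that threshold is given here, so these counts are descriptive only. DESeq2 also called 0, and limma-voom called 1 higher over 8 libraries and 0 over 7. The median log2 fold changes of the 79 genes were 0.26 and 0.11. Their summed level was 35366, 44611, 32453 and 43140 CPM in the vehicle libraries and 43144, 47989, 47866 and 39054 CPM in the TP-472 libraries. These groups overlapped, unlike those of the biogenesis factors, and the ratio of the means was 1.14, or 1.08 without vehicle replicate 3.

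**Figure D4:**
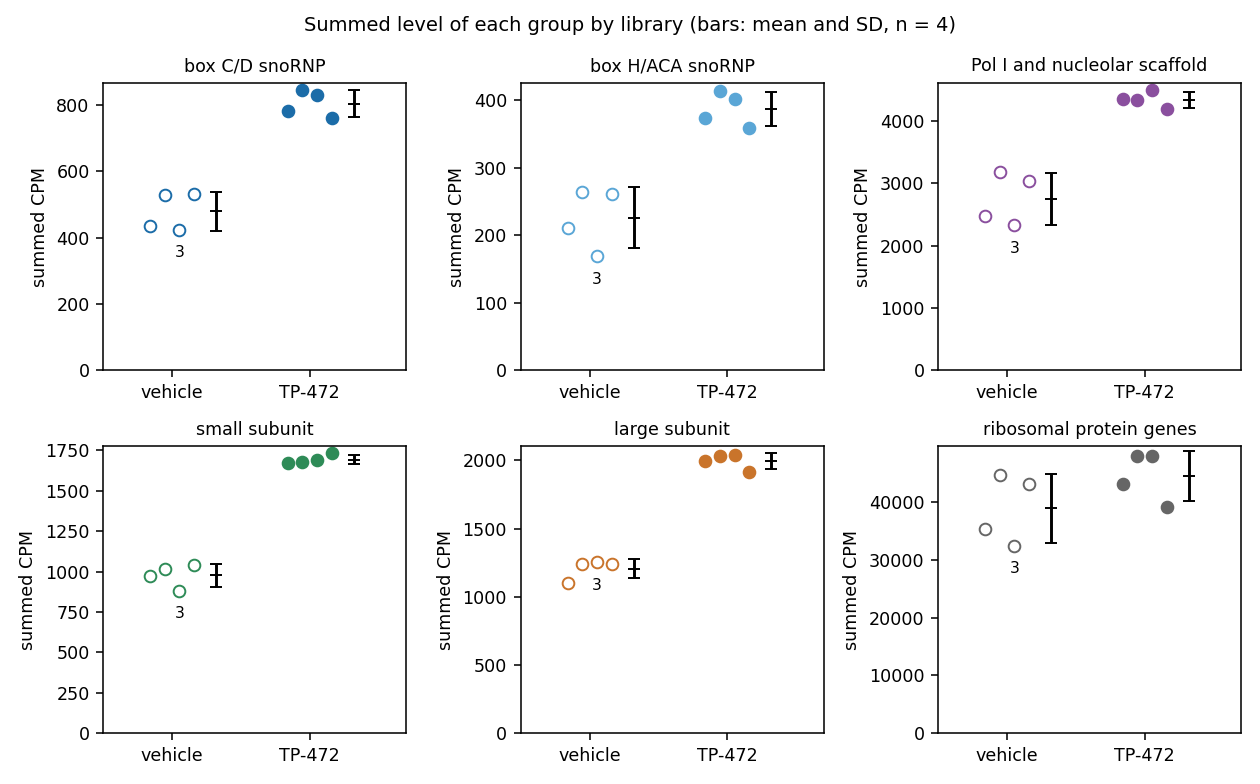
Summed CPM (vertical axis, from 0) in each library for the 5 role groups of the 50 factors and for the cytosolic ribosomal protein genes, with vehicle as open and TP-472 as filled circles, vehicle replicate 3 marked 3, and bars for the mean and SD of the 4 libraries of each group. The TP-472 circles lie above all vehicle circles in each of the 5 role groups, and the groups overlap for the ribosomal protein genes.

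**Figure D5:**
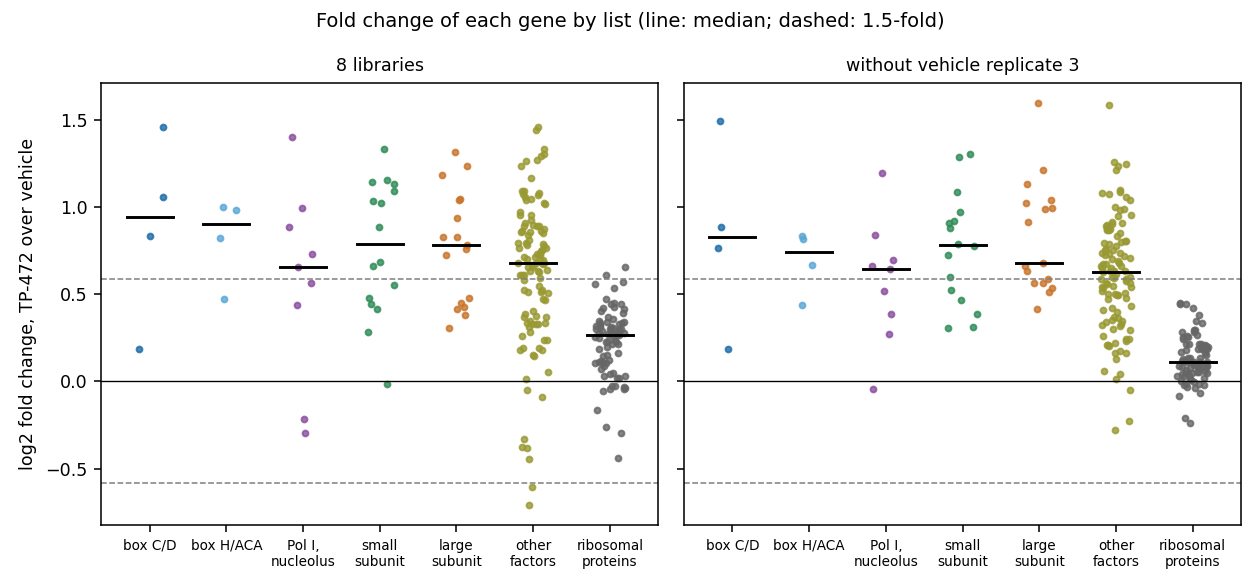
Log2 fold change of each gene (vertical axis), TP-472 over vehicle, by list, over 8 libraries (left) and without vehicle replicate 3 (right). Lines mark medians and dashed lines the 1.5-fold limit. The 5 role groups, and the 3 lists of other factors pooled as one, have medians between 0.66 and 0.94 on the left, and the ribosomal protein genes have a median of 0.26.

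Several factors share their locus with other genes. The annotation places 23 small nucleolar RNA genes with SNORD or SNORA names inside 7 of the factors (NOP58, NOP56, NCL, PPAN, DKC1, WDR43 and GNL3). Of these, 21 were at 0 in all 8 libraries and 0 passed 1 CPM in 4 libraries, so that these libraries give no account of the guide RNAs in step with their hosts. PPAN shares 56.0% of its exon bases on the same strand with the readthrough gene PPAN-P2RY11, and NOP2 shares 54.4% with AC006064.6, so reads could be split between them. Each of these partners had a mean of at most 2.35 CPM in either group. WDR74 shares 4.50% of its exon bases on the same strand with RNU2-2P, a small nuclear RNA gene. RNU2-2P was at 315 CPM in vehicle and 216 CPM after TP-472, against 35.6 and 63.2 CPM for WDR74. CPM in this paragraph is scaled by library totals over all genes and the TMM factors, and elsewhere by totals over the genes tested. The part of shared reads in the rise of WDR74 was not tested. RRN3 has 4 annotated pseudogenes, which summed to 23.5 CPM in vehicle and 28.8 CPM after TP-472, while the 46 of NPM1 summed to 2.98 and 3.06 CPM.

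Markers of cell type were read in the same libraries. The 8 smooth muscle markers summed to between 439 and 524 CPM in vehicle and between 371 and 380 CPM after TP-472. CALD1 was the most abundant (200 and 192 CPM on average), with ACTA2 at 160 and 109 CPM and DES at 3.25 and 0.63 CPM. TAGLN was called lower in both fits, at log2 fold changes of -0.67 and -0.65, and ACTA2 was called lower over 7 libraries only, at -0.60. DES and LMOD1 were called lower over 8 libraries, at -2.36 and -1.84, and were under the filter over 7. The filter asks for over 1 CPM in 4 libraries, so both genes passed it only with vehicle replicate 3 counted. A gene over 1 CPM in vehicle alone cannot pass it with 3 vehicle libraries left, so the calls of DES and LMOD1 are descriptive only. CALD1, CNN1 and SMTN were not called in either fit, at -0.059, 0.13 and -0.68 over 8 libraries and -0.11, 0.070 and -0.14 over 7, and SMTN was at 158 CPM in vehicle replicate 3 beside 52.9 to 61.2 CPM in the 3 other vehicle libraries. The defining contractile gene MYH11 was at or near 0 in vehicle, at no more than 0.028 CPM, and at no more than 0.26 CPM after TP-472. Epithelial markers (6 genes) summed to between 18.2 and 24.0 CPM in vehicle and between 21.1 and 27.8 CPM after TP-472. On average KRT19 was the most abundant of them in vehicle, at 8.88 CPM beside 7.39 CPM for KRT18. After TP-472 it was KRT18, at 15.6 CPM beside 4.93 CPM for KRT19. KRT18 was called higher in both fits, at log2 fold changes of 1.08 and 1.13, and KRT19 lower, at -0.85 and -0.71. Haematopoietic markers (5 genes) summed to between 7.15 and 8.51 CPM in vehicle and between 9.75 and 13.0 CPM after TP-472, without overlap, nearly all of it CD68, with CD3E at 0 in all 8 libraries. Endothelial markers (4 genes) summed to between 0.055 and 0.14 CPM in vehicle and between 0.41 and 0.58 CPM after TP-472, also without overlap. The part of these differences in the change of the biogenesis factors was not tested.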

How the data were processed

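Strand-specific libraries were made from total RNA of SK-UT-1 cells. The authors quantified reads on transcripts of build GRCh38 with Salmon 1.4.0, per the submitters' processing notes, and summed the estimates to genes, so the deposited values are estimated counts, neither scaled nor filtered. All 8 libraries entered the first fit, vehicle replicate 3 was left out of the second, and none were pooled.

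Counts were rounded, scaled by TMM and tested over all genes above 1 CPM in at least 4 libraries in edgeR 4.0.16 under R 4.3.3 (glmQLFTest, two-sided) with Benjamini-Hochberg adjustment and no further terms. Standard errors are the absolute log2 fold change over the square root of F. A gene was called at adjusted p under 0.05 and fold over 1.5. limma 3.58.1 and DESeq2 1.42.0 served as alternatives. The members and lists were chosen with earlier results of these data known. Values in every library are given for the member of each role with the largest change and with the highest level per exon length, for up to 6 whose call differed most between the fits, and for others chosen after their values were seen. Coordinates and GC content come from GENCODE 29 on GRCh38, matched for 96.4% of the listed genes. Libraries were checked for copies, and the smallest mean chi-square within a group was 11.2. On simulated data for the 8-library comparison, with 13891 genes, 57 of 100 genes changed 2-fold and 94 of 98 changed 4-fold were called, with 5 false calls. Library totals leave little counting error, so the spread between replicates sets the precision. The values of 1 gene are not reported here, although counts include it.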

Additional observations from a re-analysis of the deposited data

Results flagged for a closer look

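In 15 of 104 groups of 4 libraries checked over these genes, 1 library lay far outside the other 3 by Dixon's criterion, which chance alone meets in about 1 in 20 groups. The share of groups flagged over all genes is not given here. Most of the flags were of vehicle replicate 3. Over all genes tested, this library was the lowest of its group for 43.7% and the highest for 43.2%. It thus does not depart for these genes alone. It was high, beside the range of the 3 other vehicle libraries, for UBTF at 228 CPM (122 to 133), TCOF1 at 328 (117 to 136), NOP14 at 91.5 (58.9 to 61.0), NOC4L at 31.5 (14.7 to 16.7), RRP12 at 85.0 (50.4 to 53.5), NOB1 at 70.8 (39.2 to 42.2), RRP1B at 206 (130 to 134), RRS1 at 31.4 (13.3 to 15.3), PPAN at 54.3 (23.6 to 25.2) and DDX56 at 100 (76.1 to 77.7). It was low for HEATR1 at 130 CPM (178 to 187), UTP20 at 60.3 (85.1 to 88.8) and DDX18 at 91.2 (156 to 165). Vehicle replicate 1 was low for RRP9, at 21.1 CPM beside 27.0 to 28.0, and TP-472 replicate 4 was high for HEATR1, at 254 CPM beside 212 to 219. Without vehicle replicate 3, RRS1, PPAN, RRP1B, NOP14 and RRP12 had larger fold changes and HEATR1, UTP20 and DDX18 smaller ones.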

How the results depend on the processing

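No factor was called lower under any alternative tried. Over 8 libraries, 30 to 38 of the 50 were called higher under the alternatives that kept the thresholds, and 27 to 33 with each library left out in turn. The medians were 0.70 to 0.84 and 0.71 to 0.88, and the lowest, 0.70, came from limma-voom with quality weights. Without vehicle replicate 3 these ranges were 32 to 35 and 31 to 35, with medians of 0.68 to 0.71 and 0.66 to 0.74, and 34 under a filter of 1 CPM in 3 libraries, which was chosen after seeing the data. A fold limit of 2 left 15 over 8 libraries and 10 over 7. TCOF1 turned upward, from -0.22, to 0.33 with quality weights, 0.18 with a GC correction, 0.21 with that correction and the replicate block, and 0.27 without vehicle replicate 3 (range -0.38 to 0.27 with each library left out). NOC4L turned from -0.018 to 0.059 with limma-voom, 0.30 with quality weights, 0.060 with the replicate block, 0.48 with the GC correction, 0.49 with both, and 0.31, 0.0021 and 0.036 without vehicle replicate 3, TP-472 replicate 3 and TP-472 replicate 4 (range -0.14 to 0.31). The cause was not tested. Whether replicate numbers pair the libraries is not settled here. Correlations of deviations from the group means were -0.055, 0.12, -0.17 and -0.18 between the same numbers. Between unlike numbers they ran from -0.30 to 0.40. Deviations within a group are tied to each other, so these values cannot exclude pairing. A replicate block left 30 called over 8 libraries and 33 over 7. Keeping every gene moved the median of all genes to 0.12 and 0.16, and the factors called were then 31 and 32.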
